A study of Mus musculus with 6 samples.

Results

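The S100 genes of mouse encode small calcium-binding proteins, and 10 of them were followed here in RNA sequencing of tumours with and without Kindlin-1. They were chosen by symbol (S100a1, S100a3, S100a4, S100a6, S100a8, S100a9, S100a10, S100a11, S100a13 and S100a16), and all 10 were found among the 37991 genes listed. The tumours came from a cell line of cutaneous squamous cell carcinoma, a cancer of skin keratinocytes. The Kindlin-1 Null group has 3 libraries of tumours with a Kindlin-1 knockout, and the Kindlin-1 WT group has 3 libraries of tumours that express it. Host strain, age, how the knockout was made and how many clones stand behind a genotype are not stated in the labels, which also do not say whether the host's own cells carry Kindlin-1. The titles give Null libraries 2 and 3 one mouse number (242) and WT libraries 1 and 2 another (238), so a group of 3 libraries may come from fewer animals, and its spread, on which every p-value rests, may be technical in part.

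S100 proteins carry a pair of EF-hands, mostly work as dimers, and change shape on binding calcium so that they can grip a partner protein. S100A8 and S100A9 pair as calprotectin, an abundant cytosolic complex of neutrophils that is also released as an alarmin, a danger signal read by receptors such as TLR4 and RAGE. Stressed and wounded keratinocytes can make them too. Members such as S100A4, S100A6, S100A10 and S100A11 occur in many cell types, where they bind annexins, myosin and other targets. S100A1 is best known from striated muscle and S100A3 from hair cuticle.

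Reads assigned to genes ranged from 1138318 to 31487255 in the Null libraries and from 161711 (WT library 2) to 15529242 in the WT libraries. A floor of 3 counts lay at 18.6 CPM (a gene's reads per 1000000 reads assigned to genes) in WT library 2 and at or below 2.64 CPM in every other library. On the first principal component of log2 CPM (56.9% of the variance), WT library 2 lay far from the other 5 libraries. With each library thinned to 161711 reads, the closest pairs by chi-square per degree of freedom were Null libraries 2 and 3 (1.72) and WT libraries 1 and 2 (1.43), and no pair of libraries agreed within sampling noise. WT library 3 differed more from WT libraries 1 and 2 (5.27 and 6.03) than WT library 1 did from Null libraries 2 and 3 (2.52 and 3.33). Reads outside any gene made up 4.63% to 5.84% of the Null libraries and 7.15% to 12% of the WT libraries, highest in WT library 3. Fermt1, which encodes Kindlin-1, had 0, 2 and 2 reads in Null libraries 1 to 3 (0, 0.063 and 0.391 CPM). WT libraries 1 to 3 had 16, 2 and 1040 reads (12.4, 12.2 and 64.5 CPM). The groups differed in the direction of the genotype labels, but the 2 reads of WT library 2 lie under the floor of 3 counts. Defining keratinocyte markers, 20 in all, were mostly near 0: Krt1, Krt6b, Dsg3, Ivl and Sprr1b had 0 reads in all 6 libraries, and Krt5 had 0, 5 and 2 reads in the Null libraries and 5, 0 and 5 in the WT libraries. The summed level of the 20 markers was 94 to 124 CPM in Null tumours and 154 to 238 CPM in WT tumours. Perp was the largest part of it, at 33, 26.7 and 35 CPM in Null libraries 1 to 3 and 139, 140 and 83.4 CPM in WT libraries 1 to 3. The 8 markers tested had a median log2 fold change (Null minus WT) of -0.11.

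All 10 members lie on chromosome 3, where the RefSeq gene table (GRCm38.p6) orders the coding S100 genes there as S100a1, S100a13, S100a14, S100a16, S100a3, S100a2, S100a4, S100a5, S100a6, S100a7a, S100a8, S100a9, S100a7l2, S100a11 and S100a10. RefSeq promoter windows (GRCm38.p6, 250 bases before to 50 after an annotated start, which is base 251) matched 9 of the 10 members. The windows of the alarmin pair, of S100a4 and of S100a13 are shown, since S100a9 and S100a4 changed between the genotypes, S100a8 neighbours S100a9, and the S100a13 window also holds the start of S100a1. Capitals mark matches, on either strand, to any of 4 patterns: the TATA box, written TATAAA; the AP-1 pattern, written TGANTCA; the CCAAT box, searched by those 5 letters; and a loose pattern for C/EBP factors, written TTNCNNAA.
S100a8, chr3:90668821-90669120, plus strand: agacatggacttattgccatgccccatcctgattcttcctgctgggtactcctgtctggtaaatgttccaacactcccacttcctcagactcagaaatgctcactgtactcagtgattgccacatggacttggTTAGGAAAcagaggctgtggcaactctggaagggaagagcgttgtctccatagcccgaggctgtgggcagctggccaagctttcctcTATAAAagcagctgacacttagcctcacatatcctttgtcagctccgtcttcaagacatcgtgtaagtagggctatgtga
S100a9, chr3:90695672-90695971, minus strand: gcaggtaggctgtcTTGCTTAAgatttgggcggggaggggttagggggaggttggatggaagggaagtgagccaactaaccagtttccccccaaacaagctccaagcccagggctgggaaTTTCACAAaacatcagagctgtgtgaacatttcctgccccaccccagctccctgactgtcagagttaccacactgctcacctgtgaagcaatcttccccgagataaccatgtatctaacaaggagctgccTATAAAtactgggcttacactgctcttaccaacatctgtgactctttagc
S100a4, chr3:90603520-90603819, plus strand: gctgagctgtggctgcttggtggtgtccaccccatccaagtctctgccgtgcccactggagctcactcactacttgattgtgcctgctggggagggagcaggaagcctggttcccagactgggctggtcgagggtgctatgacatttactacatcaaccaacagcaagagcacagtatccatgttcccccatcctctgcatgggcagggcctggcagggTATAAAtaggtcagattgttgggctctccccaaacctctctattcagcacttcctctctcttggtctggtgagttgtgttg
S100a13, chr3:90514185-90514484, plus strand: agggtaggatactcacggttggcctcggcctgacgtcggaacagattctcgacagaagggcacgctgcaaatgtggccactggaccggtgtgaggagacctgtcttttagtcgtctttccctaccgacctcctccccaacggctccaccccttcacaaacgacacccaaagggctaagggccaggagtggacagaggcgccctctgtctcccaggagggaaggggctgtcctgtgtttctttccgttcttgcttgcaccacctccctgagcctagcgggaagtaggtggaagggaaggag
The windows of S100a8, S100a9 and S100a4 each held 1 TATAAA, against 13.6% of all 32851 windows of that length. In S100a8 and S100a4 it began 30 and 31 bases before the annotated start, and in S100a9 it began at that start itself. The S100a8 window held 1 match and the S100a9 window 2 matches to TTNCNNAA, which 40.7% of all windows hold. Neither AP-1 (7.81% of all windows) nor CCAAT letters (37.4%) occurred in the 4 windows shown, and no capitals fall in the S100a13 window. The matches did not overlap one another. S100a1 and S100a13 are read in opposite directions from start sites 105 bases apart: their windows share 204 bases, and the S100a1 start is base 146 of the S100a13 window. Matches describe letters only and show no bound factor.

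Of the 10 members 3 rose in Null tumours (S100a9, S100a1 and S100a4) and 0 fell, by the quasi-likelihood test of edgeR at an adjusted p under 0.05 (Benjamini-Hochberg, over all 11887 genes tested). All 10 passed the expression filter. Over all genes tested, 2.26% were called higher, 3.52% lower and 5.79% in either direction. At an unadjusted p under 0.05, 8 members were higher and 0 lower, where 25.1% of all genes passed in either direction, and DESeq2 called 3 higher and 0 lower. The members' median log2 fold change (Null minus WT throughout) was 1.06, against 0.01 over all genes tested. In bulk tumour RNA, fewer cells of a type and less RNA per cell cannot be told apart.

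**Figure D1:**
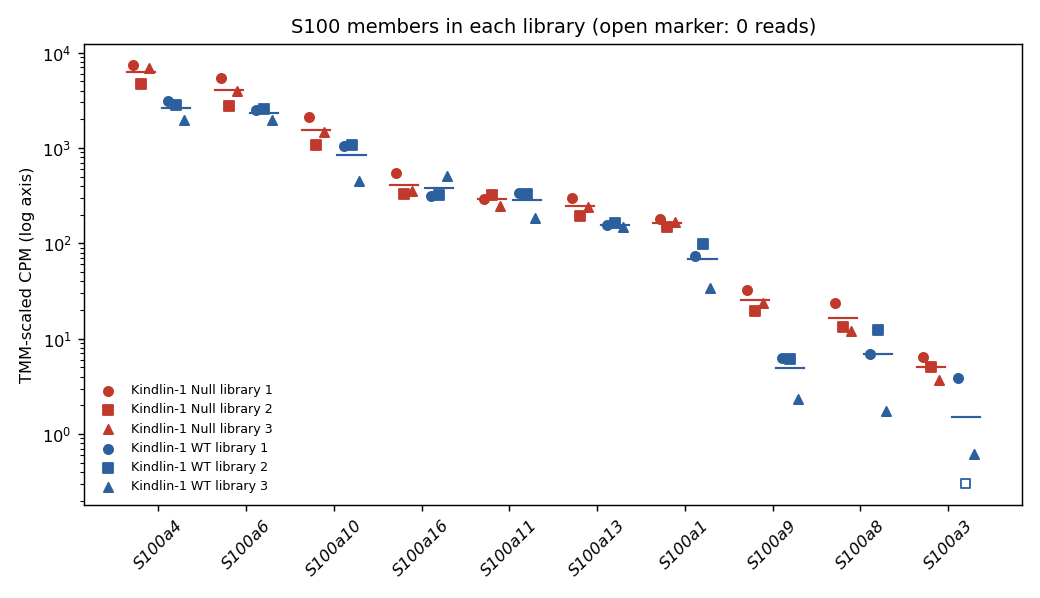
TMM-scaled CPM (log axis) of the 10 S100 genes in each of 3 Kindlin-1 Null (red, left of each pair) and 3 Kindlin-1 WT libraries (blue), with group means as lines and an open marker for 0 reads. S100a4 and S100a6 stand at the top and S100a8, S100a9 and S100a3 at the bottom, and the Null values of S100a9, S100a4, S100a6, S100a10, S100a13 and S100a1 all lie above the WT values.

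S100a9, the larger calprotectin subunit, rose most among the called members. It had 32, 19.6 and 23.9 CPM in Null libraries 1 to 3 (35, 622 and 122 reads), against 6.21, 6.11 and 2.36 CPM in WT libraries 1 to 3 (8, 1 and 38 reads). All Null values lay above all WT values, and WT library 3 was the lowest. The mean was 25.2 ± 6.33 CPM in Null tumours and 4.89 ± 2.19 CPM in WT tumours (SD, n = 3 libraries each), a 7.16-fold rise (95% interval 3.5 to 14.6, log2 fold change 2.84, SE 0.48, edgeR adjusted p = 0.00548). The single read of WT library 2 leaves a 95% exact Poisson interval of 0.155 to 34 CPM there, which covers all Null values. Without WT library 3 the log2 fold change was 1.94 and the call was lost (edgeR adjusted p = 0.0634), while in the fits without each of the other 5 libraries it stayed called.

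S100a8, the other calprotectin subunit, did not pass. It had 23.8, 13.2 and 11.9 CPM in Null libraries 1 to 3 (26, 419 and 61 reads), against 6.98, 12.2 and 1.74 CPM in WT libraries 1 to 3 (9, 2 and 28 reads). The groups overlapped, because the 12.2 CPM of WT library 2, which rest on 2 reads (95% exact Poisson interval 1.48 to 44.1 CPM), exceeded Null library 3. The means were 16.3 ± 6.52 CPM in Null and 6.98 ± 5.24 CPM in WT tumours (SD, n = 3 each), with a fitted 4.41-fold difference (95% interval 1.7 to 11.4, edgeR adjusted p = 0.0641). The log2 fold change of 2.14 became 0.93 without WT library 3 (edgeR adjusted p = 0.402) and 2.87 without WT library 1 (0.0257, called). Summing both shared mouse numbers called it (edgeR adjusted p = 0.0341), as did the mouse as a random effect (limma-voom adjusted p = 0.0156). Summing the WT number alone (edgeR adjusted p = 0.0736) or the Null number alone (0.117) did not call it. Nor did DESeq2 (adjusted p = 0.153).

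Within the pair, S100a9 supplied 57.4%, 59.8% and 66.7% of the reads in Null libraries 1 to 3, against 47.1%, 33.3% and 57.6% in WT libraries 1 to 3. These shares overlapped between the genotypes, and the WT shares rest on 17, 3 and 66 reads of the pair.

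The alarmins were a small part of S100 reads in every tumour. S100a8 and S100a9 together took 0.341% (Null library 1, 95% Wilson interval 0.266% to 0.438%), 0.341% (Null library 2, 0.321% to 0.363%) and 0.269% (Null library 3, 0.233% to 0.311%) of the reads of the 10 genes. In the WT libraries the share was 0.174% (library 1, 0.109% to 0.279%), 0.247% (library 2, 0.084% to 0.723%) and 0.0781% (library 3, 0.0614% to 0.0994%). The Null shares lay above the WT shares, but the interval of WT library 2 spans the whole Null range. That of WT library 1 covers the share of Null library 3. The intervals allow for counting error alone, as no molecular identifiers mark the reads, and the share needs no scaling between libraries. The median log2 fold change was 2.49 for the 2 alarmins and 0.73 for the 6 broadly expressed members (S100a4, S100a6, S100a10, S100a11, S100a13 and S100a16), and without WT library 3 these medians were 1.43 and 0.57. Whether the classes differ was not tested.

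**Figure D2:**
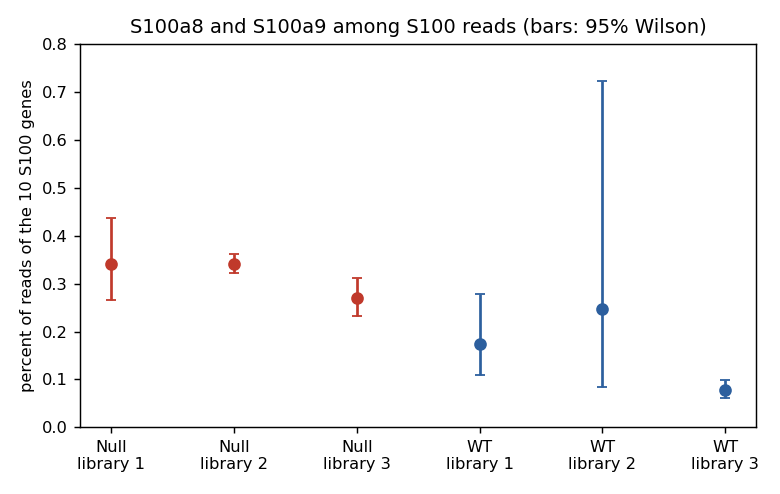
Reads of S100a8 and S100a9 as a percent of the reads of the 10 S100 genes in each library (Kindlin-1 Null red, Kindlin-1 WT blue), with 95% Wilson intervals as bars. The Null shares lie between 0.269% and 0.341%, and the WT shares between 0.0781% and 0.247%, with a wide bar on WT library 2, which had 3 alarmin reads.

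Neutrophil markers were set beside the alarmins. Of 22 markers other than S100 genes 7 were tested and 0 passed (edgeR; at an unadjusted p under 0.05, 2 were higher and 1 lower, and DESeq2 called 1 higher and 0 lower), with a median log2 fold change of 0.29. Their summed level was 101 to 119 CPM in Null tumours and 111 to 126 CPM in WT tumours, overlapping ranges. Ly6g, a surface marker of mouse neutrophils, and Elane, neutrophil elastase, had 0 reads in all 6 libraries. Csf3r, the G-CSF receptor, stood at 43.8 ± 5.36 CPM in Null and 62.3 ± 9.57 CPM in WT tumours (SD, n = 3 each, edgeR adjusted p = 0.291), and Mmp9, gelatinase B, at 24.3 ± 5.61 and 24.8 ± 10.7 CPM (0.92). These 2 were the most abundant of the list. Every Null value of Csf3r lay below every WT value, and Mmp9 overlapped. Scarcer markers, named after their values were seen, went in both directions. Padi4 was lower, at 2.29 ± 3.78 CPM in Null and 12.8 ± 11.4 CPM in WT tumours with overlap (edgeR adjusted p = 0.115). Fpr2 stood at 10.5 ± 3.95 CPM in Null and 8.13 ± 3.05 CPM in WT tumours, also with overlap (edgeR adjusted p = 0.723). Il1r2, the decoy interleukin 1 receptor, stood at 5.16 ± 1.12 CPM in Null and 0.931 ± 0.821 CPM in WT tumours (edgeR adjusted p = 0.0618), and Cxcr2, the receptor for Cxcl1 and Cxcl5, at 5.18 ± 0.52 and 2.01 ± 1.74 CPM (0.287), both with every Null value above every WT value. Clec4e was at 5.72 ± 1.02 CPM in Null and 3.86 ± 1.98 CPM in WT tumours with overlap (edgeR adjusted p = 0.191). Trem1, an activating receptor of neutrophils and monocytes, was below the filter with 12, 89 and 20 reads in Null libraries 1 to 3, against 1, 0 and 0 reads in WT libraries 1 to 3. It was tested in 3 of the fits that left out a library and called higher in 2, without WT library 1 and without WT library 2 (lowest edgeR adjusted p = 0.0192). Fpr1, Stfa2l1 and Retnlg, also below the filter, had higher CPM in every Null library than in any WT library, Fpr1 on 3, 162 and 20 Null reads against 3, 0 and 17 WT reads. Among 9 genes for neutrophil chemokines and their inducers, 4 were tested, 2 rose and 0 fell. These were Cxcl1 (3.64-fold, 25.4 ± 10.9 CPM in Null and 4.55 ± 3.99 CPM in WT tumours, edgeR adjusted p = 0.0379) and Cxcl5 (2.5-fold, 62.2 ± 17 and 19.1 ± 12.2 CPM, 0.0391). With 1 library left out at a time, Cxcl1 passed in 1 (without Null library 2) and Cxcl5 in 2 of 6 fits (without WT library 3 and without Null library 3), and the highest edgeR adjusted p was 0.144 for Cxcl1 and 0.16 for Cxcl5.

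Of 16 monocyte and macrophage markers, all tested, 1 rose and 0 fell (median log2 fold change 0). The one was Plac8, at 39.3 ± 5.73 CPM in Null and 8.24 ± 5.01 CPM in WT tumours (SD, n = 3 each, edgeR adjusted p = 0.00792), called in each of the 6 fits with 1 library left out. The summed level of this list was 6407 to 7819 CPM in Null and 3934 to 6953 CPM in WT tumours. The part of any leukocyte type in the S100a9 rise was not tested.

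Of 11 genes for receptors of extracellular S100 proteins and their signal partners 10 were tested, 0 rose and 1 fell (at an unadjusted p under 0.05, 2 were higher and 1 lower, and DESeq2 called 0). Ager, which encodes RAGE, fell 3.34-fold, with 5.49, 5.51 and 3.91 CPM in Null libraries 1 to 3, against 12.4, 6.11 and 21.5 CPM in WT libraries 1 to 3 (log2 fold change -1.74, edgeR adjusted p = 0.0294). The Null values lay below the WT values, though the 6.11 CPM of WT library 2 are 1 read. The call did not hold when any 1 of the Null libraries was left out (highest edgeR adjusted p = 0.139), and Ager was not tested without WT library 3. Tlr4, the toll-like receptor for calprotectin, named after its values were seen, stood at 29.3 ± 15.1 CPM in Null and 11.1 ± 4.48 CPM in WT tumours (edgeR adjusted p = 0.112).

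S100a4, also known as metastasin or fibroblast-specific protein, binds the heavy chain of non-muscle myosin IIA and was the most abundant member. It had 7431, 4728 and 6818 CPM in Null libraries 1 to 3, against 3135, 2845 and 1957 CPM in WT libraries 1 to 3. The lowest Null value stood above the highest WT value. The mean was 6326 ± 1417 CPM in Null and 2645 ± 614 CPM in WT tumours (SD, n = 3 each), a 2.39-fold rise (95% interval 1.46 to 3.91, log2 fold change 1.26, SE 0.33, edgeR adjusted p = 0.0424). The call was lost without WT library 1 or 2 and without Null library 1 or 3 (highest edgeR adjusted p = 0.153), and with both shared mouse numbers summed (0.192), at log2 fold changes between 1.06 and 1.42 in all the fits that left out a library. S100a4 shares 302 bases of exon (51.7%) with an overlapping gene on the same strand, Gm42674, in a later annotation, and that gene is not among the identifiers counted here.

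S100a6, or calcyclin, the second most abundant member, had 5468, 2763 and 3932 CPM in Null libraries 1 to 3, against 2478, 2576 and 1955 CPM in WT libraries 1 to 3. The groups did not overlap, yet Null library 2 exceeded WT library 2 only slightly, and the 1.74-fold difference missed the threshold (95% interval 1.06 to 2.84, edgeR adjusted p = 0.153). S100a4 outnumbered S100a6 by 1.36, 1.71 and 1.73 reads to 1 in Null libraries 1 to 3 and by 1.26, 1.1 and 1 reads to 1 in WT libraries 1 to 3. This ratio within a library, chosen after its values were seen, was higher in each Null library than in any WT library.

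S100a10, or p11, pairs with annexin A2 and holds its shape without calcium. It had 2092, 1074 and 1487 CPM in Null libraries 1 to 3, against 1054, 1062 and 447 CPM in WT libraries 1 to 3. Null library 2 stood barely above WT library 2, and the 1.83-fold difference did not pass (95% interval 1.04 to 3.21, edgeR adjusted p = 0.171). Its partner Anxa2 was at 1464 ± 127 CPM in Null and 1430 ± 137 CPM in WT tumours (SD, n = 3 each, edgeR adjusted p = 0.949).

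S100a13, which takes part in the release of FGF1 and interleukin 1 alpha without a signal peptide, had 302, 196 and 243 CPM in Null libraries 1 to 3, against 155, 165 and 148 CPM in WT libraries 1 to 3. The groups did not overlap, and the 1.59-fold difference did not pass (95% interval 1.08 to 2.33, edgeR adjusted p = 0.13).

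S100a11, a partner of annexin A1, and S100a16 showed no difference that these libraries could resolve. S100a11 had 295, 325 and 249 CPM in Null libraries 1 to 3, against 339, 330 and 185 CPM in WT libraries 1 to 3. S100a16 had 551, 331 and 357 CPM in Null libraries 1 to 3, against 316, 324 and 509 CPM in WT libraries 1 to 3. Both overlapped between the genotypes, and S100a16 was the member for which WT library 3 was high instead of low. The fitted fold changes were 1.03 for S100a11 (95% interval 0.671 to 1.6, edgeR adjusted p = 0.933) and 1.06 for S100a16 (0.676 to 1.67, adjusted p = 0.884), so these libraries do not exclude differences within those intervals. Their sign turned with the libraries left out, to -0.23 for S100a11 without WT library 3 and to -0.19 for S100a16 without Null library 1. A processed pseudogene, S100a11-ps, had 1 read in all, and reads with several alignments are set apart in the count files, so any that fit both copies are not in the S100a11 count.

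**Figure D3:**
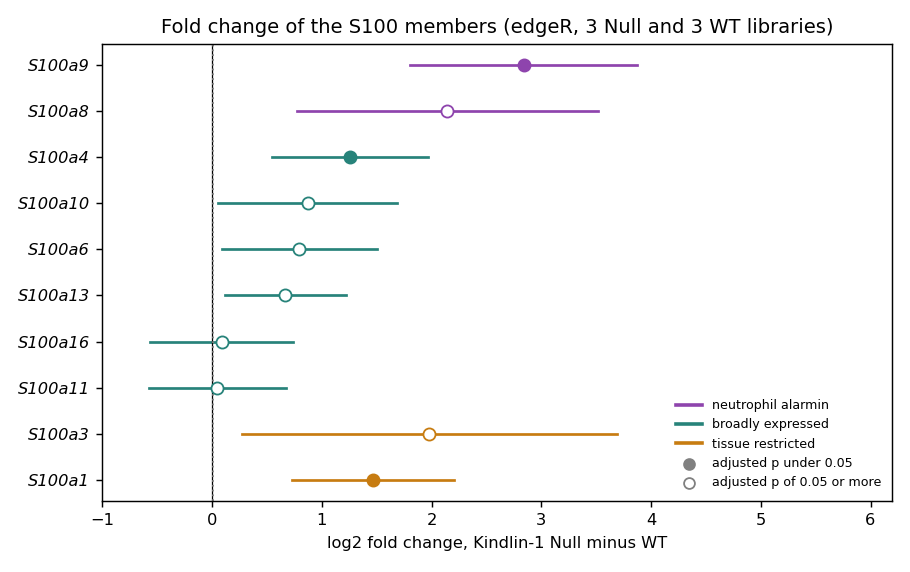
Log2 fold change (Kindlin-1 Null minus WT, horizontal axis) of each S100 gene with its 95% interval, coloured by class, with filled points for an edgeR adjusted p under 0.05 and a dotted line at the median of all genes tested (0.01). S100a9 is farthest right at 2.84, and S100a11 and S100a16 lie near 0.

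Of 17 annexins and other intracellular S100 targets 11 were tested and 0 passed (edgeR; at an unadjusted p under 0.05, 2 were higher and 1 lower, and DESeq2 called 1 higher). The median log2 fold change was 0.16. Ahnak, a large scaffold held by the Anxa2 and S100a10 complex, was at 1237 ± 97 CPM in Null and 1539 ± 223 CPM in WT tumours (SD, n = 3 each, edgeR adjusted p = 0.49). Anxa1, the annexin of S100a11, and Anxa11, which binds S100a6, came close to the threshold and were named after their values were seen. Anxa1 stood at 1251 ± 355 CPM in Null and 470 ± 240 CPM in WT tumours (edgeR adjusted p = 0.0583), and Anxa11 at 113 ± 23.4 and 54.8 ± 11.3 CPM (0.0505). The 1 lower gene at an unadjusted p under 0.05 was Myh9, the heavy chain of non-muscle myosin IIA. It stood at 609 ± 155 CPM in Null and 1126 ± 547 CPM in WT tumours with overlap (edgeR adjusted p = 0.182).

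S100a1, the striated muscle member that acts on the calcium release channel Ryr1 and the pump Atp2a1, rose in tumours in which most muscle markers fell. It had 179, 147 and 167 CPM in Null libraries 1 to 3 (196, 4672 and 854 reads), against 72.9, 97.7 and 34.3 CPM in WT libraries 1 to 3 (94, 16 and 553 reads). The groups did not overlap, with WT library 3 lowest. The 16 reads of WT library 2 leave a 95% exact Poisson interval of 55.8 to 159 CPM there, which covers the lowest Null value. The mean was 165 ± 16.3 CPM in Null and 68.3 ± 31.9 CPM in WT tumours (SD, n = 3 each), a 2.76-fold rise (95% interval 1.66 to 4.6, log2 fold change 1.46, SE 0.34, edgeR adjusted p = 0.0283). The call was lost without WT library 3 (edgeR adjusted p = 0.0514, log2 fold change 1.02), Null library 1 (0.0988) or Null library 3 (0.0767).

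Of 20 skeletal muscle markers 17 were tested, 0 rose and 14 fell (median log2 fold change -3.32; 16 lower and 0 higher at an unadjusted p under 0.05, and 14 lower and 0 higher by DESeq2). Their summed level was 57.1 to 145 CPM in Null and 672 to 1708 CPM in WT tumours. Ryr1 itself stood at 3.66, 2.87 and 1.17 CPM in Null libraries 1 to 3, against 52, 48.8 and 29.9 CPM in WT libraries 1 to 3, a 17-fold fall (edgeR adjusted p = 0.000289). Titin (Ttn), desmin (Des) and fast troponin T (Tnnt3) also fell, with log2 fold changes of -4.58, -3.61 and -4.20 (edgeR adjusted p = 0.000289, 0.00023 and 0.000614). S100a1 was thus higher where the muscle list was lower in all 3 Null libraries. S100a13, whose start site lies beside that of S100a1, had a log2 fold change of 0.67 against 1.46 for S100a1, and the difference between them was not tested.

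S100a3 was close to the limit of detection. It had 6.41, 5.1 and 3.71 CPM in Null libraries 1 to 3 (7, 162 and 19 reads), against 3.88, 0 and 0.62 CPM in WT libraries 1 to 3 (5, 0 and 10 reads). The groups overlapped, and every Null value lay under the floor of WT library 2, so its 0 reads say little. The fitted 3.94-fold difference did not pass (95% interval 1.21 to 12.9, edgeR adjusted p = 0.143), and it passed without WT library 1 (0.0432).

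Beyond the 10 members, few other S100 genes were expressed. S100a7a, a skin member, was at 4.34 ± 1.8 CPM in Null and 4.33 ± 2.44 CPM in WT tumours (SD, n = 3 each, edgeR adjusted p = 0.904). S100pbp, a protein that binds S100P in human and is no S100 itself, was at 45.4 ± 2.94 CPM in Null and 66.5 ± 41.8 CPM in WT tumours (0.172). S100b, known from Schwann cells, had 0, 80 and 3 reads in Null libraries 1 to 3 and 10, 0 and 56 reads in WT libraries 1 to 3. In the same order of libraries, S100a14 had 0, 42 and 5 Null reads and 0, 1 and 30 WT reads, and S100a5 had 0, 16 and 3 Null reads and 0, 0 and 7 WT reads. S100g, the intestinal calbindin, had 0, 5 and 28 Null reads and 0, 0 and 1 WT reads, and S100z had 0 in all libraries. Of these 7 genes 2 were tested and 0 passed (edgeR; 1 lower at an unadjusted p under 0.05, 0 by DESeq2). Of 6 fused S100-type genes of the cornified layer, 4 (Flg2, Hrnr, Rptn and Crnn) had 0 reads in all libraries and none was tested, with Tchh (0, 2 and 5 Null reads, 4, 2 and 7 WT reads) and Tchhl1 (1 read, in Null library 3) the only ones seen.

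**Figure D4:**
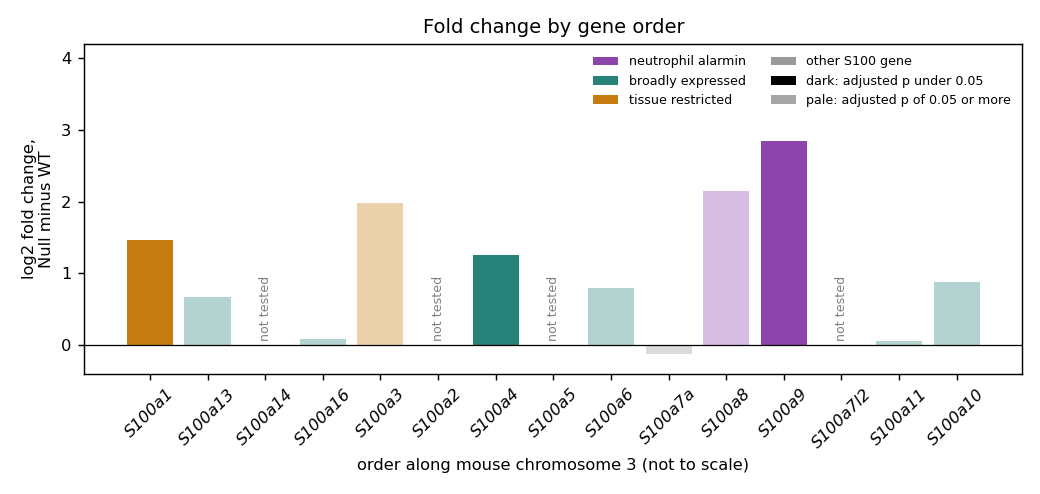
Log2 fold change (Kindlin-1 Null minus WT, vertical axis) of the coding S100 genes in their order along mouse chromosome 3, not to scale, coloured by class, with dark bars for an edgeR adjusted p under 0.05 and genes without a test marked so. The called genes S100a1, S100a4 and S100a9 do not neighbour one another, and S100a16 and S100a7a lie near 0 between higher bars.

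Per kilobase of transcript, the members kept nearly the same order in both genotypes. S100a4 led with 12702 CPM per kb in Null and 5312 CPM per kb in WT tumours, and then came S100a6 (5546 and 3196), S100a10 (2264 and 1247) and S100a11 (567 and 557). S100a16 (366 and 340), S100a13 (345 and 218) and S100a1 (243 and 101) were in the middle of the order. S100a9 (48.5 and 9.42), S100a8 (33.6 and 14.4) and S100a3 (7.13 and 2.11) closed it. Taken in the order of the Null tumours, S100a11 and S100a16 overlapped in both genotypes, as did S100a9 and S100a8, which changed places between Null and WT means. S100a16 and S100a13 overlapped in Null tumours only, and S100a10 with S100a11 and S100a8 with S100a3 in WT tumours only. The other neighbours did not overlap. All 10 genes together took 1.57%, 0.968% and 1.3% of the reads in Null libraries 1 to 3, against 0.76%, 0.751% and 0.544% in WT libraries 1 to 3.

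Some of these calls depended on single libraries. Null library 1 held the highest of the 6 values for 9 of the 10 members (S100a11 was the exception), and WT library 3 held the lowest for 8 of them (all but S100a16 and S100a3). How often these libraries hold the extreme over all genes tested is not given here, so this may not be particular to S100 genes. All Null values lay above all WT values for 6 members and below for 0, against 16.2% above and 14.3% below over all genes tested. Without WT library 3 the members called were 1 (S100a4), without Null library 1 they were 1 (S100a9) and without Null library 3 they were 1 (S100a9). The share of reads outside genes was lower in the same Null libraries, and its part in the results was not tested.

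**Figure D5:**
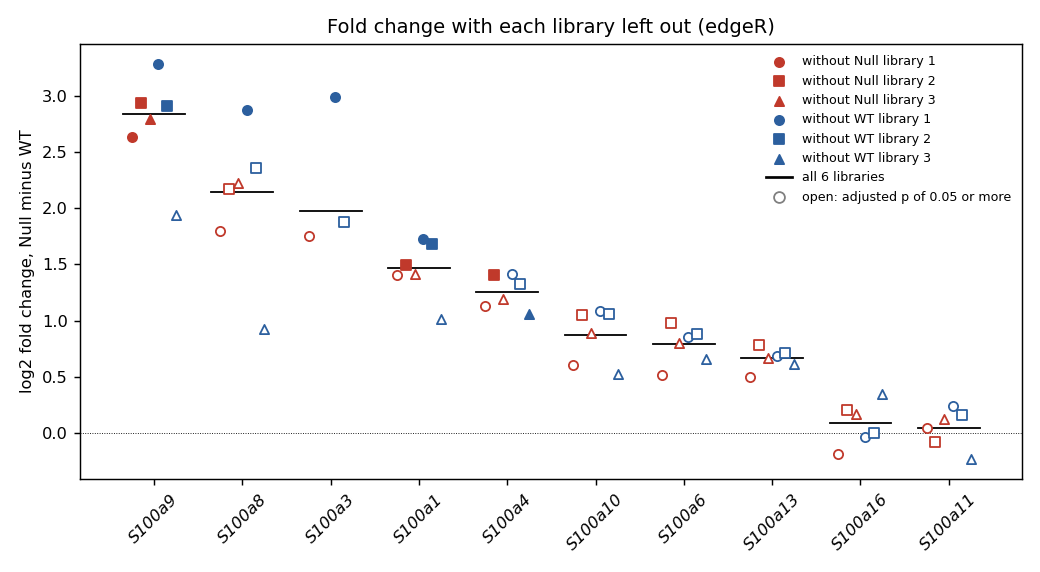
Log2 fold change (Kindlin-1 Null minus WT) of each S100 gene with all 6 libraries (line) and with each library left out in turn (points), filled where the edgeR adjusted p was under 0.05. Leaving out WT library 3 gives the lowest point for S100a9 (1.94), S100a8 (0.93), S100a1 (1.02) and S100a10 (0.53); S100a3 was tested in 3 of these fits.

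Other cell types that the tumours could hold were read from the same fit. Of 12 fibroblast markers, all tested, 3 rose and 2 fell: Lum (7.58-fold, 473 ± 101 CPM in Null and 66.5 ± 19.5 CPM in WT tumours) and Dcn (2.71-fold) were among those that rose, and Thy1 and Col1a2 were lower by 3.07-fold and 3.06-fold (SD, n = 3 each, edgeR adjusted p = 0.000384, 0.0255, 0.00501 and 0.0174). The median log2 fold change of this list was 0.02. Its summed level was 17528 to 20231 CPM in Null and 8525 to 15696 CPM in WT tumours, higher in the same Null libraries as S100a4. Col3a1 (7708 CPM in Null and 5515 CPM in WT tumours, edgeR adjusted p = 0.415) and Postn (4606 and 1904 CPM, 0.0357) weighed most in that sum. Like Col1a2 and Thy1, the markers Col1a1, Pdgfrb, Fap and Fbln1 had lower means in Null tumours. The part of fibroblasts in the S100a4 rise was not tested. Of the 20 keratinocyte markers 8 were tested, 1 rose (Krt15, 4.77-fold) and 2 fell (Perp, 3.72-fold, and Krt14, 4.1-fold; edgeR adjusted p = 0.0283, 0.00273 and 0.01). Of 10 adipocyte markers 4 were tested, 3 fell (Cfd, Lpl and Car3) and 0 rose, with summed levels of 45.2 to 93.4 CPM in Null and 101 to 264 CPM in WT tumours. Of 13 T and NK cell markers 7 were tested, 2 rose (Prf1 and Gzma) and 0 fell, with summed levels of 148 to 212 and 77.6 to 147 CPM. Of 8 endothelial markers, all tested, 0 passed (0 at an unadjusted p under 0.05, 0 by DESeq2), with Egfl7 and Pecam1 the most abundant. With 1 library left out at a time, Lum, Thy1, Perp, Krt14, Cfd and Prf1 passed in 6 of 6 fits. Krt15 and Gzma did not pass without WT library 3 or Null library 1, Col1a2 without Null library 1 or 3, and Dcn without WT library 2 or Null library 1 or 3. Lpl passed in 3 and Car3 in 2 of these fits.

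The genes whose levels ran most like those of S100a9 over the 6 libraries, among 8204 genes with a mean of at least 20 CPM, were Npc2 (Pearson r = 0.996), Gpnmb (0.996), Pcca (0.995), Stk39 (0.994) and Tnn (0.994). For S100a8 they were Fundc2, Cd151, Dnajc9, Gins2 and Mrpl27 (all r = 0.997 or 0.998), and for S100a1 they were Cdkn1a, Psma5, Echs1, Galk1 and Tusc3 (r = 0.995 to 0.997). The 3 lists share no gene. The 6 points are the same libraries each time, differ widely in depth, and carry the genotype difference, so these values describe likeness only.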

How the data were processed

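RNA from tumours was sequenced as 6 libraries, 3 Kindlin-1 Null and 3 Kindlin-1 WT, grouped by the genotype label and numbered in the order of deposit. Each library has a deposited table of raw counts, reads per Ensembl mouse gene, which the authors did not normalize. Per the submitters' processing notes, TopHat2, Cuffdiff, DESeq2 and the build mm9 were used; for the counting program, the annotation, the use of strand and all versions the entry is "not given in the sources used here". Reads of a gene and its antisense neighbour cannot be told apart if strand was not used. The 5 closing lines of each file name no gene and stayed out of library sizes: reads with several alignments were 32.9% to 40%, reads in no gene 4.63% to 12% and ambiguous reads 1.72% to 2.11% of all listed reads. The file of Null library 3 carries another mouse number in its name than in its title.

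Symbols were matched by Ensembl identifier for 32919 of 37991 genes (86.6%) through a GENCODE M21 table. Counts were tested in R 4.3.3 with edgeR 4.0.16 (quasi-likelihood, robust fit, TMM scaling, default expression filter), Null over WT, with Benjamini-Hochberg adjustment over all genes tested; each standard error and interval was computed back from the F statistic. CPM values are TMM scaled. Levels per kilobase use the longest principal transcript in GENCODE M21. The procedure was tested on simulated data. Alternatives were DESeq2 1.42.0, limma 3.58.1 with mouse number as a random effect, other scalings and filters, summed libraries and left-out libraries. Permuting 3 against 3 libraries gives no exact two-sided p under 0.1, so no permutation test was used.

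The members, the gene lists and the naming rule were chosen with earlier results of these data known. The rule named all members, every other S100 gene with at least 10 reads, up to 4 called genes of each list or else its 2 most abundant genes, and the 5 genes most like S100a8, S100a9 and S100a1 by correlation.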

Additional observations from a re-analysis of the deposited data

How the results depend on the processing

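No paired analysis was possible because the labels give the genotypes no shared replicate numbers. S100 members called higher numbered 3 with all libraries, 1 to 4 with 1 library left out, 1 with the Null mouse number summed and 5 when limma-voom took the mouse as a random effect (consensus correlation 0.597, S100a8 and S100a3 added), and 2 to 4 under the scaling, test and filter alternatives and the other sums; 0 were called lower under any alternative. Genes called higher numbered 269 with all libraries, 59 to 421 with 1 left out, 165 with the WT mouse number summed, 97 with the Null mouse number summed and 533 with limma-voom. Genes called lower numbered 419, 120 to 434 with 1 left out and 148 with the Null mouse number summed. The median log2 fold change of the members was 1.06, and 0.66 to 1.25 with 1 library left out. No scaling moved the median of all genes by over 0.1. The cause of these shifts was not tested.

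S100a9 kept its call in 16 of 17 alternatives (log2 fold change 1.94 to 3.29), S100a1 in 13 (1.02 to 1.93) and S100a4 in 9 (1.06 to 1.42). S100a4 also lost it with a filter of 10 CPM in 3 libraries (edgeR adjusted p = 0.0517), and with the WT (0.0831) or the Null mouse number (0.138) summed; S100a1 lost it with the Null mouse number summed (0.0719). S100a8 was called in 4, without a filter (0.036), without WT library 1, with both mouse numbers summed (0.0341) and with the random effect (0.0156). S100a3 was called in 2 of 12. With 1 library left out, the log2 fold change of S100a11 ran between -0.23 and 0.25 (below 0 without WT library 3, and -0.08 without Null library 2), and that of S100a16 between -0.19 and 0.34 (below 0 without Null library 1, and -0.03 without WT library 1); S100a16 was also at -0.026 with the WT mouse number summed. Neither was ever called. S100a6, S100a10 and S100a13 kept their direction and were never called. Taking the alarmin share over 8 genes instead of 10, without S100a1 and S100a3, left each library's share within its interval. Those genes hold few of the reads (4672 and 162 of 304839 in Null library 2), so this could hardly move the share. Depth limits S100a3, S100a8 and S100a9 most, with 0, 2 and 1 reads in WT library 2.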
